A study of Mus musculus with 32 samples.

Results

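The 37 genes of mouse mitochondrial DNA (mtDNA) were followed in the muscle, liver and hypothalamus of 200-day-old mice with a muscle-specific loss of COX10. They were taken as all genes whose symbol in the GRCm38 annotation starts with mt-, a choice made with earlier results of these data known. They comprise 13 mRNAs, 2 rRNAs and 22 tRNAs among the 55401 genes counted. COX10 KO mice were C57BL/6 animals homozygous for a floxed Cox10 allele and carrying a Cre recombinase knocked into the Myl1 locus (Myl1 tm1(cre)Sjb), which is active in skeletal muscle. CTL mice were C57BL/6 animals of the same age labelled as controls, and which of these alleles they carried is not given in the sources used here. Calf muscle (gastrocnemius and soleus) and liver were each profiled in 6 COX10 KO and 6 CTL libraries, with 3 females and 3 males per genotype. Hypothalamus was profiled in 4 COX10 KO and 4 CTL libraries, all from males. The labels name both sexes, whereas the study's methods describe male mice unless indicated. RNA was read from its 3′ end by QuantSeq, an oligo-dT-primed method that starts from a poly(A) stretch and gives 1 read per captured molecule. Each value below is a read count, a share of a library's gene counts, or CPM, the count relative to the library's total after TMM, a scaling that corrects totals for composition.

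COX10 farnesylates heme on the way to the heme a of cytochrome c oxidase (complex IV), the respiratory complex whose catalytic core is encoded by mtDNA. Both strands of the circular mtDNA are transcribed into long precursors, and tRNAs that punctuate the coding sequences are cut out to free the rRNAs and mRNAs. The mRNAs encode subunits of complexes I, III, IV and V, the rRNAs form the mitochondrial ribosome, and the tRNAs read its codons. Most mtDNA-encoded mRNAs and the rRNAs receive 3′ A tails in mammals, while tRNAs end in CCA.

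The libraries held between 434494 and 22321322 gene counts. In muscle the COX10 KO libraries held 1734571 to 11404800 and the CTL libraries 434494 to 8936522. In liver the ranges were 674311 to 3197080 for COX10 KO and 1955599 to 16044634 for CTL, and in hypothalamus 3526613 to 5684034 for COX10 KO and 4070847 to 22321322 for CTL. Cox10 itself stood at 113 ± 16.2 CPM in COX10 KO muscle and 110 ± 42.3 CPM in CTL muscle (SD, n = 6 each), with an adjusted p of 0.907 in edgeR's quasi-likelihood test. A 3′ read does not have to cover the deleted part, so this count checks nothing about the deletion. Myl1, the Cre locus, was at 5460 ± 1507 CPM in COX10 KO muscle and 11530 ± 3277 CPM in CTL muscle (log2 fold change -1.06, edgeR adjusted p = 0.00836). Tissue markers followed the labels, with a summed CPM of 7 skeletal muscle markers of 62195 to 190266 in muscle, of 7 liver markers of 51784 to 184286 in liver and of 8 hypothalamus markers of 682 to 1876 in hypothalamus. In 1 COX10 KO liver the muscle markers reached 698 CPM, while the highest CTL liver had 38.9. In 2 of the 32 libraries, both of liver, sex-linked genes did not match the labelled sex. These were liver CTL 1, labelled female, and liver CTL 4, labelled male. Labelled sex was a term in each main fit that held liver. Nothing in the labels gives a batch, and nothing says whether tissues came from the same animals, so p-values measure the spread between these libraries. CTL muscle 2 was the shallowest library. In bulk tissue, fewer cells of a type and less RNA per cell cannot be told apart.

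The counts fell on few of the 37 genes. Summed over 32 libraries, mt-Nd4 received 12466382 counts, mt-Cytb 6990766, mt-Nd1 3393861, mt-Nd2 1945291, mt-Rnr2 1667275, mt-Rnr1 887179, mt-Nd5 521160, mt-Co1 388805 and mt-Nd6 5098. The other 6 mRNAs were at or near 0. mt-Co2, mt-Atp8 and mt-Nd4l had 0 counts, mt-Co3 had 4, mt-Atp6 had 7 and mt-Nd3 had 15. Of the 22 tRNAs, 6 had 0 counts in every library (mt-Tn, mt-Ts1, mt-Td, mt-Tk, mt-Tg and mt-Th). mt-Ty had 1 and mt-Tr 7, and the others lay between 89 for mt-Ts2 and 9565 for mt-Tm. The tRNA genes are 59 to 75 bases long, shorter than the 86-base reads, so which molecules gave their counts cannot be told from the tables.

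The zeros of the complex IV and complex V mRNAs cannot be read as levels. A stretch of nuclear chromosome 1 carries copies of this part of mtDNA, annotated as pseudogenes on the minus strand of chr1:24611535-24616197 (GRCm38). A read that matches both places equally has no single origin, and whether such reads were counted is not given in the sources used here. The tRNAs mt-Ts1, mt-Td, mt-Tk, mt-Tg and mt-Tr lie between mt-Co1 and mt-Nd4l, which both have copies in that stretch. These tRNAs are too short for the search for copies, so their zeros or low counts cannot be read as levels either. The last 60 bases that a member shares with its copy are shown for 2 complex IV subunits, because no base differs between them. mt-Co2 lies on the plus strand at chrM:7634-7693 and its copy Gm28661 at chr1:24614885-24614944; mt-Co3 lies at chrM:9330-9389 and its copy Gm28437 at chr1:24613189-24613248. The sequences, from the GENCODE transcripts of GRCm38, read 5′ to 3′ on the gene's strand.
mt-Co2: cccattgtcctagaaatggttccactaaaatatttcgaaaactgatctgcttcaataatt
Gm28661: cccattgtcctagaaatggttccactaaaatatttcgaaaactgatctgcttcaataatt
mt-Co3: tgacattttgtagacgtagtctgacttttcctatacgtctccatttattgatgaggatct
Gm28437: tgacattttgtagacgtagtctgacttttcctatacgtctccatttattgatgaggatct

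The copies matched mt-Co2 over 681 bases, mt-Atp6 over 678 (Gm10925), mt-Co3 over 783 and mt-Nd4l over 294 (Gm10222), each at 100% identity, and mt-Nd3 over 345 bases at 99.71% (Gm28438). Of all 86-base windows of each member, 99.5% of mt-Co2, 99.5% of mt-Atp6, 99.86% of mt-Co3, 97.72% of mt-Nd3 and 98.58% of mt-Nd4l occurred letter for letter in an annotated nuclear gene. The share was 0 for mt-Nd1, mt-Cytb, mt-Nd6, mt-Rnr1 and mt-Rnr2, 4.617% for mt-Nd2 and 0.575% for mt-Nd5. mt-Atp8, with 0 counts, also had no such window, but only annotated nuclear genes were searched. The copies of its neighbours mt-Co2 and mt-Atp6, Gm28661 (chr1:24614885-24615565) and Gm10925 (chr1:24613974-24614651), lie in the same order. The chromosome 1 sequence between these copies was not searched. mt-Atp8 lies at chrM:7766-7969 and overlaps mt-Atp6 on the same strand only at chrM:7927-7969, where reads have no single gene. Why the rest of mt-Atp8 had no counts was not tested. Gm13341, a copy of mt-Co2 on chromosome 2 at 95.906% identity, held 1023 counts over the 32 libraries while mt-Co2 held 0. Gm10925 held 13, Gm28437 and Gm29216 7 each, Gm28438 5 and Gm28661 2.

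mt-Nd4 and mt-Co1 were covered in part. The copy Gm28439 matched bases 1 to 876 of the 1378 of mt-Nd4 at 100%, but no window at the 3′ end of mt-Nd4 occurred in it. The copy Gm29216 matched mt-Co1 from base 1063 to its last base 1545 with 1 mismatch. Over all annotated nuclear genes, 34.86% of the windows of mt-Co1 had an exact match, including all of the last 394. If reads that fit both places were not counted, the counts of mt-Co1 came from upstream of its 3′ end. The single difference, A1066T counted from 1 at the first base of mt-Co1, is in capitals below. The 18 bases lie on the plus strand at chrM:6390-6407 and on the minus strand at chr1:24616171-24616188.
mt-Co1: ggaAttgttttatccaac
Gm29216: ggaTttgttttatccaac

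The 3′ ends of the most counted mRNAs, mt-Nd4, mt-Cytb and mt-Nd1, had no exact 86-base match in an annotated nuclear gene. The same held for the end of the large rRNA. Counts are given per gene without read positions, so whether the reads lay at these ends could not be tested. On the plus strand the last 60 bases are chrM:11485-11544 for mt-Nd4, chrM:15229-15288 for mt-Cytb, chrM:3648-3707 for mt-Nd1 and chrM:2616-2675 for mt-Rnr2.
mt-Nd4: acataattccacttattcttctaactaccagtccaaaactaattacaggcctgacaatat
mt-Cytb: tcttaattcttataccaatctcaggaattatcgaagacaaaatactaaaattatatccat
mt-Nd1: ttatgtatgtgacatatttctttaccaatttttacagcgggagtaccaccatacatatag
mt-Rnr2: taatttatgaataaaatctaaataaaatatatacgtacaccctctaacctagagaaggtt

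The share of the muscle library taken by all mtDNA genes together overlapped between the genotypes. They held 24.1 ± 1.56% of gene counts in COX10 KO muscle and 25.0 ± 2.16% in CTL muscle (SD, n = 6 each). The libraries ran from 21.9 to 26.0% in COX10 KO and from 22.6 to 28.6% in CTL. In liver the share was 12.3 ± 2.79% in COX10 KO and 12.6 ± 1.59% in CTL, and in hypothalamus 14.3 ± 0.774% in COX10 KO and 14.7 ± 0.726% in CTL (n = 4 each). No p is given for these sums.

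The classes within that sum did not behave alike in muscle. The mRNAs held 23.9 ± 1.52% of the COX10 KO muscle libraries and 24.4 ± 2.04% of the CTL muscle libraries. The rRNAs held 0.0912 to 0.254% in COX10 KO muscle, with a median of 0.129%, against 0.243 to 1.11% with a median of 0.618% in CTL muscle. The highest COX10 KO library lay just above the lowest CTL library. The tRNAs held 0.00179 to 0.00310% in COX10 KO muscle and 0.00368 to 0.0106% in CTL muscle, and here the groups did not overlap. For each rRNA count, COX10 KO muscle had a median of 196 mRNA counts (96.3 to 240) and CTL muscle 40.2 (24.6 to 103), with a single CTL library reaching into the COX10 KO range.

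**Figure D1:**
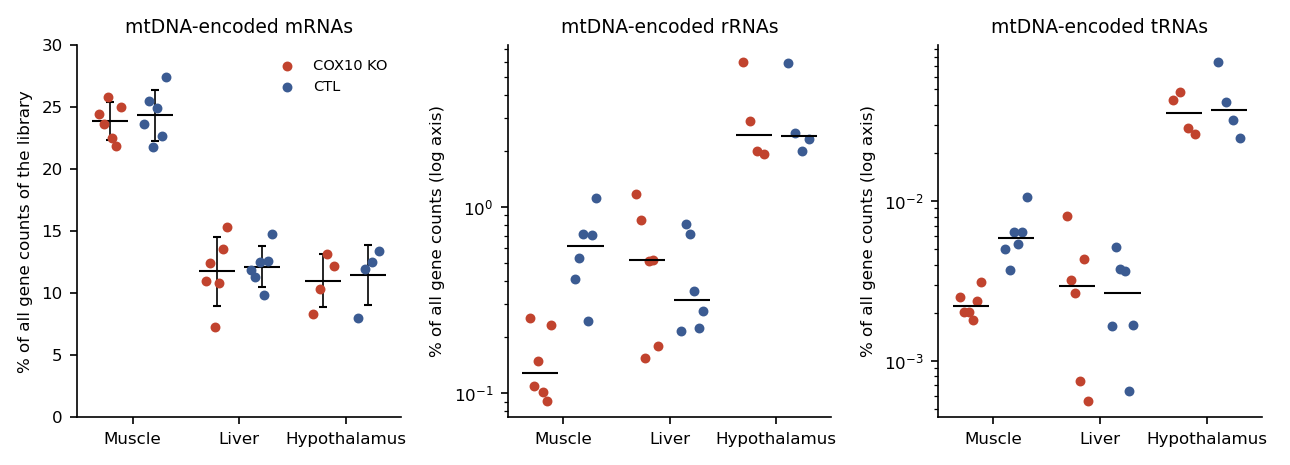
Share of all gene counts of each library (y, %, linear for mRNAs and log axis for rRNAs and tRNAs) by tissue and genotype, 1 point per library. Lines are means with SD bars for mRNAs and medians for rRNAs and tRNAs. The mRNA shares of COX10 KO and CTL muscle overlap around 24%, while the tRNA shares of the COX10 KO muscle libraries all lie below those of the CTL muscle libraries.

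In liver and hypothalamus the classes overlapped between genotypes. The rRNA share was 0.155 to 1.17% (median 0.516%) in COX10 KO liver and 0.215 to 0.807% (median 0.315%) in CTL liver. In hypothalamus it was 1.93 to 5.96% (median 2.43%) in COX10 KO and 2.00 to 5.94% (median 2.39%) in CTL. The upper end of both hypothalamus ranges was the library numbered 1. The tRNA share was 0.0263 to 0.0482% in COX10 KO hypothalamus and 0.0249 to 0.0739% in CTL hypothalamus, and 0.000563 to 0.00808% in COX10 KO liver and 0.000645 to 0.00516% in CTL liver. A count of mRNA per count of rRNA averaged 4.50 in COX10 KO and 4.56 in CTL hypothalamus.

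In muscle 16 of the 37 genes had enough counts to be tested. Both rRNAs, mt-Nd2 and 5 tRNAs were lower in COX10 KO, mt-Co1 was higher, and 7 genes were not called at an adjusted p under 0.05 in edgeR's quasi-likelihood test. Of all 11636 genes tested in muscle, 7.43% were called lower and 6.90% higher, 14.3% in all. A tRNA with counts mainly in CTL could pass the filter only through that group, so the tested tRNAs do not stand for all 22. The median log2 fold change was -1.14 over the 16 members and -0.03 over all genes tested. With no scaling beyond library size that median over all genes was 0.17, and the called genes in muscle changed to 1220 higher and 473 lower, against 803 higher and 865 lower with TMM. The members divided into 1 higher and 8 lower with either scaling.

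mt-Rnr2, the 16S rRNA of the large mitochondrial ribosomal subunit, showed 470, 687 and 1470 CPM as the lowest, median and highest values in COX10 KO muscle. In CTL muscle these were 1689, 4237 and 10197 CPM. Every COX10 KO library lay below every CTL library, where 6.39% of all genes tested in muscle had groups that did not overlap. The log2 fold change was -2.47 ± 0.43 (SE, edgeR adjusted p = 0.00163), and the exact two-sided permutation test gave p = 0.00216, the smallest that 6 against 6 allows.

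mt-Rnr1, the 12S rRNA of the small subunit, had 339, 559 and 919 CPM in COX10 KO muscle. The CTL libraries had 919, 1743 and 4476 CPM. The highest COX10 KO library and the lowest CTL library met at 919 CPM. The log2 fold change was -1.79 ± 0.37 (edgeR adjusted p = 0.00482; exact permutation p = 0.00433). The rRNAs did not fall by the same factor. mt-Rnr2 counts per mt-Rnr1 count were 1.37 ± 0.199 in COX10 KO muscle (1.17 to 1.62) and 2.23 ± 0.271 in CTL muscle (1.84 to 2.68), with no overlap. In liver the order was the other way, 2.57 ± 0.203 in COX10 KO (2.27 to 2.78) and 2.01 ± 0.136 in CTL (1.83 to 2.24), again with no overlap, and in hypothalamus the means were 1.80 in COX10 KO and 1.90 in CTL, with overlap. No test was made of this ratio.

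Among the complex I subunits, mt-Nd2 stood apart. Its lowest, median and highest values were 6784, 8615 and 9759 CPM in COX10 KO muscle and 16342, 23864 and 51040 CPM in CTL muscle. Every COX10 KO library was below every CTL library. The log2 fold change was -1.68 ± 0.26 (edgeR adjusted p = 8.34e-04, exact permutation p = 0.00216). mt-Nd2 took 3.73% of the mtDNA mRNA counts in COX10 KO muscle and 10.04% in CTL muscle.

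The other measured complex I mRNAs were not called. mt-Nd1 had 30280, 34778 and 37029 CPM in COX10 KO muscle and 24235, 32503 and 46163 in CTL muscle, and the COX10 KO values lay within the CTL range. Its log2 fold change was 0.02 ± 0.19 (edgeR adjusted p = 0.957). mt-Nd4, the most counted member, had 82991, 102142 and 118534 CPM in COX10 KO muscle and 90207, 129892 and 186375 in CTL muscle, with overlap. Its log2 fold change was -0.37 ± 0.22 (edgeR adjusted p = 0.28; exact permutation p = 0.0455, not adjusted for the 27 such tests made). mt-Nd5 followed at -0.31 ± 0.20 (edgeR adjusted p = 0.326). mt-Nd6 is the only mRNA encoded on the other strand. It had 1.91, 4.14 and 5.83 CPM in COX10 KO muscle and 2.73, 6.53 and 15.3 in CTL muscle (log2 fold change -0.78 ± 0.43, edgeR adjusted p = 0.245). Its gene overlaps mt-Nd5 on the opposite strand, and since the strand setting of the counting is not given in the sources used here, reads of the 2 strands cannot be told apart.

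mt-Cytb, the mtDNA-encoded subunit of complex III, had 56139, 77271 and 83551 CPM in COX10 KO muscle and 41997, 62921 and 76862 in CTL muscle, with overlap. The log2 fold change was 0.24 ± 0.22 (edgeR adjusted p = 0.497). mt-Co1, the catalytic subunit of complex IV, was the 1 member called higher. It had 4150, 4711 and 5419 CPM in COX10 KO muscle and 2070, 2886 and 4476 in CTL muscle. A single CTL library, numbered 6, reached into the COX10 KO range. The log2 fold change was 0.67 ± 0.20 (edgeR adjusted p = 0.0362, exact permutation p = 0.00866). As a share of the library, mt-Co1 did not overlap between the groups (0.417 to 0.559% in COX10 KO, 0.242 to 0.340% in CTL). This call was lost when any of COX10 KO 1, 2 or 3 or CTL 1, 3 or 5 was left out, with edgeR adjusted p of 0.0542 to 0.0746 and log2 fold changes of 0.65 to 0.74.

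**Figure D2:**
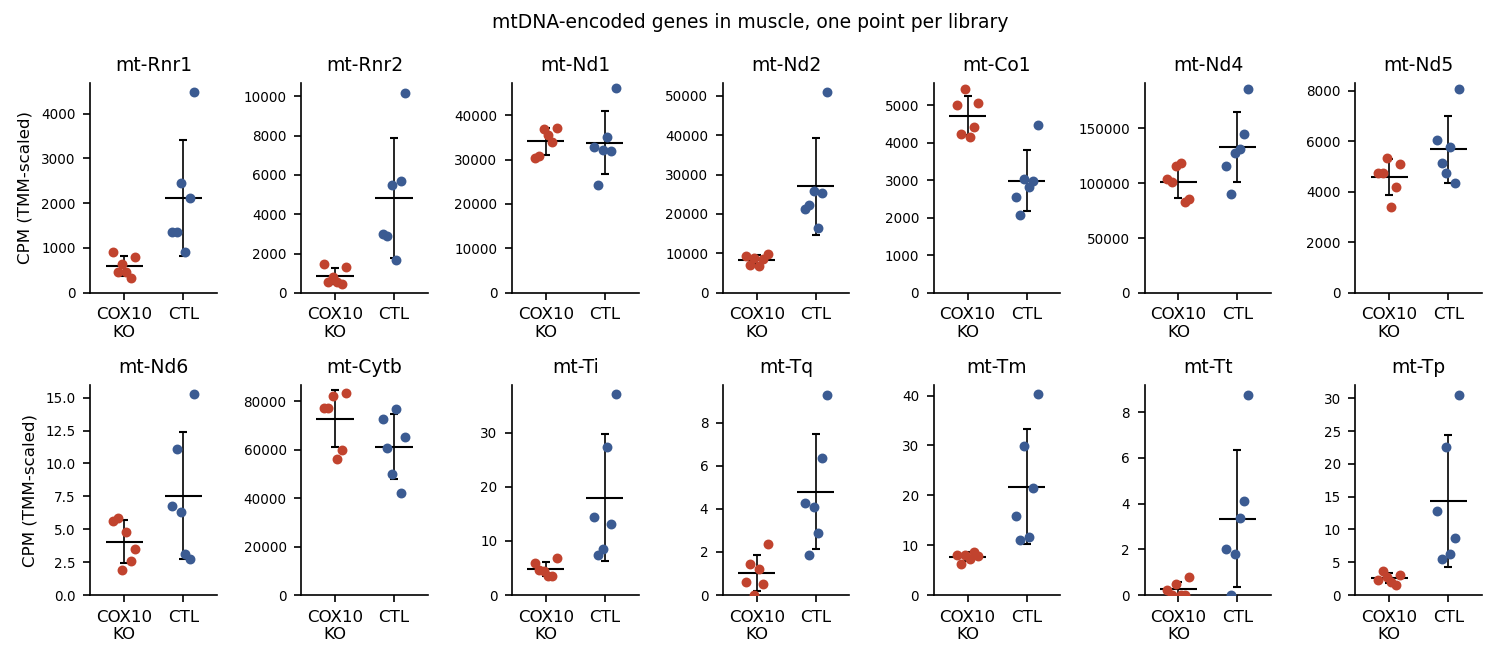
TMM-scaled CPM (y, linear from 0, own scale per panel) of 14 mtDNA-encoded genes in muscle, 1 point per library, COX10 KO left and CTL right, with mean and SD. Both rRNAs, mt-Nd2 and the 5 tRNAs shown are low in COX10 KO muscle, mt-Co1 is high, and mt-Nd1 lies between 24235 and 46163 CPM in both genotypes.

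The 5 tRNAs called lower in muscle lay in 2 stretches of mtDNA. mt-Ti (isoleucine), mt-Tq (glutamine) and mt-Tm (methionine) fill chrM:3706-3913 between mt-Nd1 and mt-Nd2, and mt-Tt (threonine) and mt-Tp (proline) follow mt-Cytb at chrM:15289-15422. mt-Tq and mt-Tp are encoded on the minus strand, with the same limit on strand as mt-Nd6. mt-Ti and mt-Nd1 share 2 bases. Only 7 of the 22 tRNAs were tested in muscle, and the 2 not called, mt-Tv and mt-Tl1, lie at either end of mt-Rnr2. The positions of the called tRNAs therefore follow in part from which tRNAs had enough counts.

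All counts were low. mt-Tp had 1.53, 2.5 and 3.72 CPM in COX10 KO muscle and 5.54, 10.7 and 30.6 in CTL muscle, without overlap (log2 fold change -2.47 ± 0.41, edgeR adjusted p = 0.00123). mt-Tm had 6.32, 7.97 and 8.69 CPM in COX10 KO muscle and 11.1, 18.7 and 40.4 in CTL muscle, without overlap (-1.5 ± 0.30, edgeR adjusted p = 0.00378). mt-Ti had 3.58, 4.49 and 6.89 CPM in COX10 KO muscle and 7.38, 13.8 and 37.1 in CTL muscle, without overlap (-1.78 ± 0.33, edgeR adjusted p = 0.00282). For mt-Tt, 3 of 6 COX10 KO libraries held a count, 15 in all, against 5 of 6 CTL libraries with 66. Its fitted log2 fold change of -3.27 ± 0.70 (edgeR adjusted p = 0.00655) depends on the prior count. mt-Tq had 53 counts in COX10 KO muscle and 84 in CTL muscle, at -2.13 ± 0.55 (edgeR adjusted p = 0.0194), and its call was lost without CTL 6 (edgeR adjusted p = 0.0638). mt-Tv (valine) and mt-Tl1 (leucine) were tested and not called, both at -0.52 (edgeR adjusted p = 0.542 and 0.66).

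**Figure D3:**
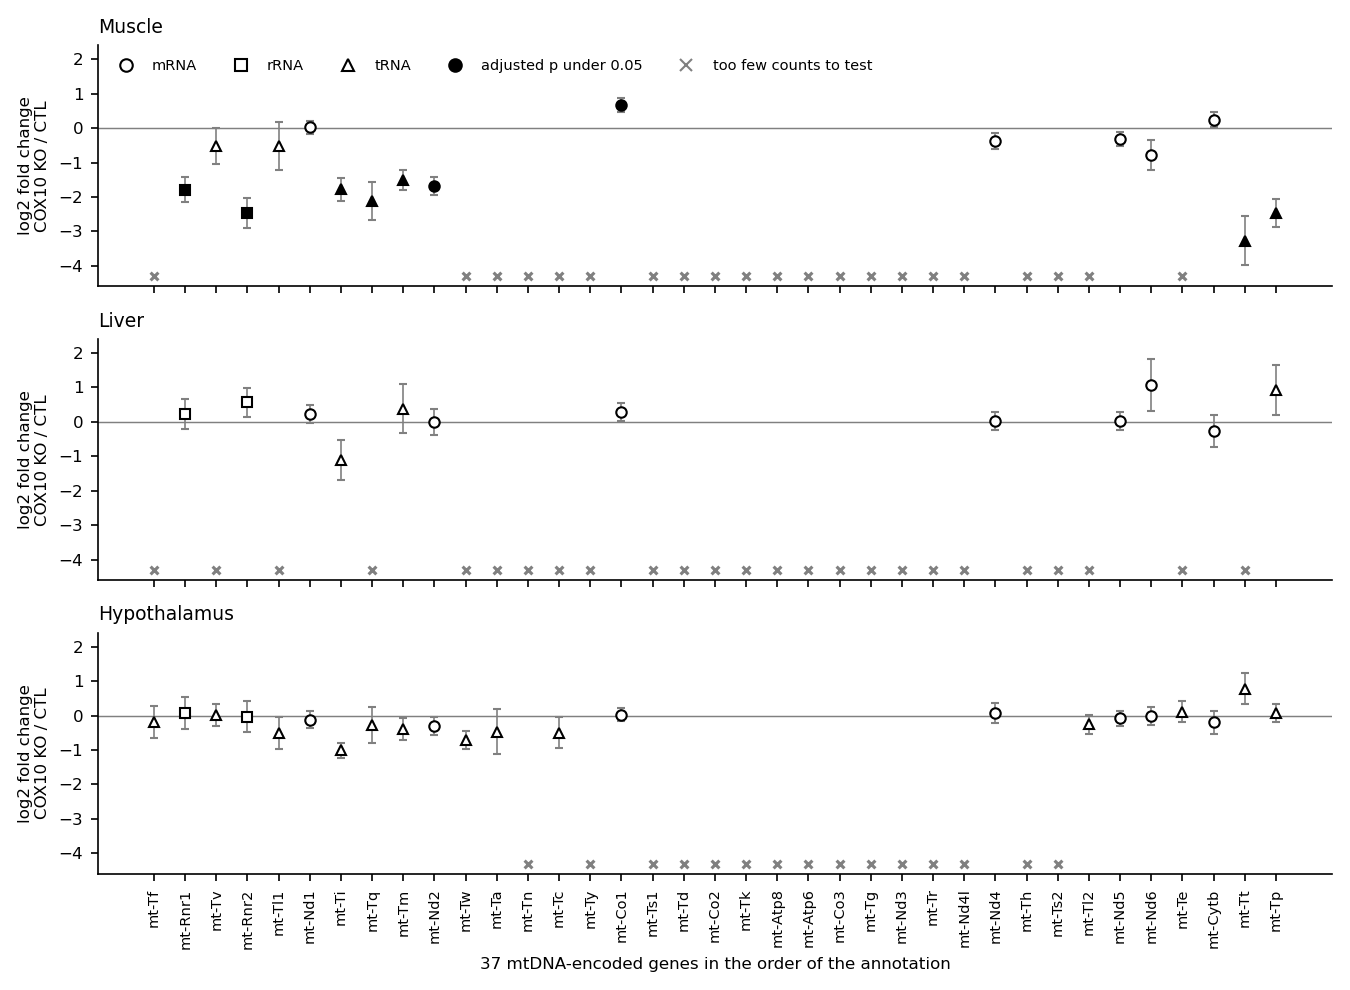
log2 fold change of COX10 KO over CTL (y, ± SE) for the 37 mtDNA-encoded genes in annotation order (x), in muscle, liver and hypothalamus. Symbols mark mRNAs (circles), rRNAs (squares) and tRNAs (triangles), filled where the adjusted p was under 0.05, and crosses mark genes with too few counts to test. The 9 filled symbols are all in muscle, 8 below 0 and mt-Co1 above.

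The spread of the CTL muscle libraries bears on these values. Malat1, a long noncoding RNA held in the nucleus, was examined after its values were seen. It had 281, 173, 204, 162, 195 and 228 CPM in COX10 KO muscle 1 to 6 and 213, 268, 1512, 226, 1646 and 3036 CPM in CTL muscle 1 to 6. The 3 CTL libraries numbered 3, 5 and 6 stood apart from the other 9. Its log2 fold change was -2.34 ± 0.57 (edgeR adjusted p = 0.0147). Among CTL libraries the same 3 had the highest mt-Rnr2 and mt-Nd2. mt-Rnr2 was at most 1470 CPM in COX10 KO muscle, against 5471, 5704 and 10197 CPM in CTL 3, 5 and 6 and 3002, 2904 and 1689 CPM in CTL 1, 2 and 4. mt-Nd2 was at most 9759 CPM in COX10 KO muscle, against 25718, 25373 and 51040 CPM in CTL 3, 5 and 6 and 21237, 22355 and 16342 CPM in CTL 1, 2 and 4.

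Without CTL 3, 5 and 6, Malat1 itself was at -0.14 (edgeR adjusted p = 0.79), and 5 members were still called. These were mt-Rnr2 at -1.44 ± 0.36 (edgeR adjusted p = 0.0491), mt-Nd2 at -1.21 ± 0.23 (0.0138), mt-Ti at -1.82 ± 0.34 (0.0138), mt-Tp at -1.65 ± 0.37 (0.0339) and mt-Co1 at 0.94 ± 0.23 (0.0419). mt-Rnr1 at -0.90 (0.116), mt-Tm at -0.77 (0.126), mt-Tq at -1.72 (0.279) and mt-Tt at -2.85 (0.137) were no longer called. The part of what sets these libraries apart in the values with all 12 libraries was not tested. In liver and hypothalamus Malat1 was not called (0.34 and -0.23, edgeR adjusted p = 0.997 and 1). It ranged from 93.3 to 3299 CPM in COX10 KO livers and from 138 to 1895 CPM in CTL livers, and the 2 COX10 KO livers of highest Malat1 had mt-Rnr2 at 5646 and 7807 CPM and the 3 CTL livers of highest Malat1 at 2278 to 4817 CPM, while the other livers had 1234 to 4012 CPM in COX10 KO and 1512 to 1889 CPM in CTL.

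**Figure D4:**
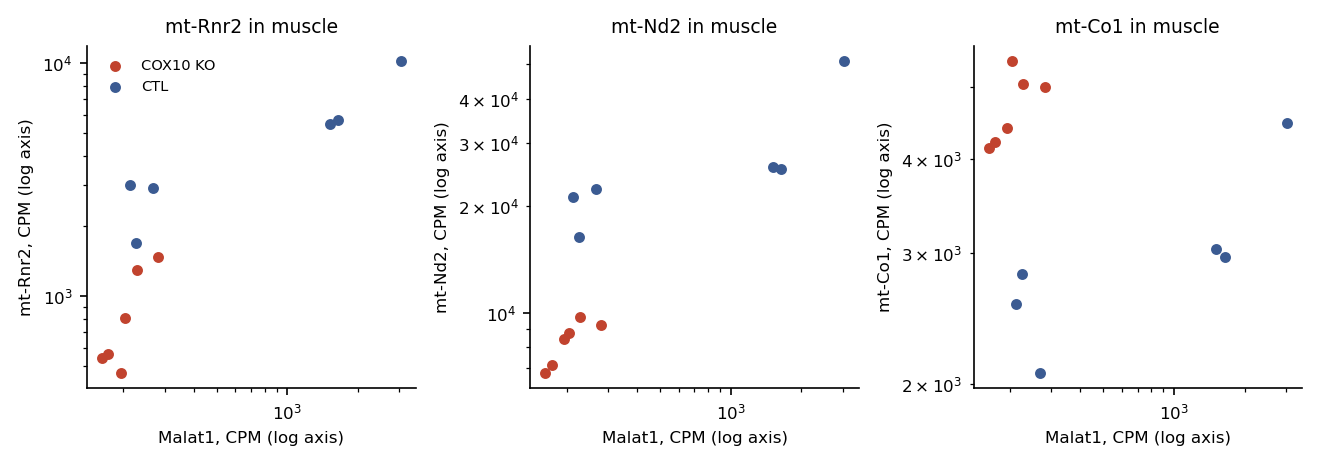
Malat1 (x, CPM, log axis) against mt-Rnr2, mt-Nd2 and mt-Co1 (y, CPM, log axis) in the 12 muscle libraries, 1 point per library. In the CTL libraries Malat1 is either 213 to 268 or 1512 to 3036 CPM, and at the lower level of Malat1 the COX10 KO points lie below the CTL points for mt-Rnr2 and mt-Nd2 and above them for mt-Co1.

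Markers of cells in muscle also moved. Fast fibre markers, such as Myh4 and Tnnt3, were called lower for 5 of 7 genes, with summed CPM of 33410 to 61220 in COX10 KO and 43459 to 137776 in CTL muscle, and slow fibre markers for 0 of 7 (1545 to 5584 in COX10 KO and 777 to 20744 in CTL). Of the 7 skeletal muscle markers, a list that shares Myh4 and Tnnt3, 4 were lower. Macrophage markers were called higher for 3 of 13 tested genes (summed CPM 249 to 574 in COX10 KO and 138 to 434 in CTL). Erythroid markers summed to 1053 to 2590 CPM in COX10 KO and 1175 to 11296 CPM in CTL, adipocyte markers to 801 to 2232 CPM in COX10 KO and 264 to 5526 CPM in CTL, and liver markers to 19.1 to 313 CPM in COX10 KO and 28.7 to 2203 CPM in CTL, with 0 of 5, 0 of 7 and 0 of 6 tested genes called. Of the choroid plexus markers 0 of 2 tested were called, and of the hypothalamus markers none had enough counts. The part of cell composition in the mtDNA values was not tested.

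Of 74 tested nuclear genes that serve mtDNA expression, 5 were called higher in COX10 KO muscle and 0 lower. That is 6.76% higher, near the 6.90% of all genes, beside 7.43% of all genes lower. Of 7 transcription genes tested (among them Polrmt, the mitochondrial RNA polymerase, and Tfam, which packages mtDNA) and of 13 for replication and nucleotide supply, 0 were called. Of 22 for RNA processing and decay, 1 was called, Ptcd3 (log2 fold change 0.83 ± 0.25, edgeR adjusted p = 0.0396), a protein of the small mitochondrial ribosomal subunit. Of 20 for rRNA and tRNA modification, 2 were called, Mettl15, a methyltransferase of the 12S rRNA (1.17 ± 0.27, 0.00961), and Trit1, which modifies tRNAs (0.75, 0.0297). Of 12 translation factors, 2 were called, the ribosome recycling factor Mrrf (0.86, 0.0178) and Oxa1l, which inserts mtDNA-encoded proteins into the inner membrane (0.58, 0.0491). The medians of these 5 lists were 0.38, -0.01, 0.27, 0.29 and 0.08, beside -0.03 over all genes.

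Of 79 tested nuclear subunits of the respiratory complexes, 10 were called higher in COX10 KO muscle (12.7%) and 0 lower, beside 6.90% and 7.43% of all genes. Complex I had 1 of 36 (Ndufs1, 0.73), complex II, which holds no mtDNA-encoded subunit, 1 of 4 (Sdha, 0.61), complex III 1 of 9 (Uqcrc2, 0.59), complex IV 3 of 13 (Cox7b 0.93, Cox5a 0.65, Cox7a2 0.79) and ATP synthase 4 of 17 (Atp5b 0.76, Atp5f1 0.81, Atp5mpl 0.58, Atp5g3 0.57). Their edgeR adjusted p ran from 0.00724 to 0.0383. The list medians were 0.12, 0.42, 0.26, 0.52 and 0.45. With library size alone the median over all genes moved up, as given above, and these lists were not refitted with that scaling. In liver and hypothalamus 0 genes of these 10 lists were called.

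In liver 12 members could be tested and 0 were called, beside 0.0927% of all 9707 genes (0.0206% higher and 0.0721% lower). None had an unadjusted p under 0.05 in edgeR, and DESeq2 called 0 as well. mt-Rnr2 had 1234, 3875 and 7807 CPM in COX10 KO liver and 1512, 2083 and 4817 in CTL liver, a difference of 0.56 ± 0.43 on the log2 scale (edgeR adjusted p = 0.997). mt-Rnr1 had 478, 1571 and 2848 CPM in COX10 KO liver and 733, 1104 and 2295 in CTL liver (0.22 ± 0.43, edgeR adjusted p = 0.997). In both rRNAs the COX10 KO values ran below and above the CTL values. mt-Nd2 was at 2657, 10893 and 14688 CPM in COX10 KO liver and 7561, 9993 and 15153 in CTL liver (-0.00 ± 0.37). mt-Cytb was at 3686, 25268 and 56290 CPM in COX10 KO liver and 15837, 32314 and 48864 in CTL liver (-0.26 ± 0.47).

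The remaining liver mRNAs were close to 0 or imprecise. The log2 fold changes were 0.22 ± 0.26 for mt-Nd1, 0.29 ± 0.26 for mt-Co1, 0.04 ± 0.26 for mt-Nd4 and 0.03 ± 0.26 for mt-Nd5. mt-Nd6, with 64 counts in COX10 KO livers and 74 in CTL livers, was at 1.07 ± 0.74. The tRNAs mt-Ti, mt-Tm and mt-Tp were at -1.11, 0.38 and 0.92. Without the 2 libraries whose sex did not match, mt-Rnr2 was at 0.46 and 0 members were called. Macrophage markers summed to 219 to 527 CPM in COX10 KO livers and 317 to 1313 CPM in CTL livers, with 0 of 13 called. With standard errors of 0.26 to 0.74 on the log2 scale, an adjusted p near 1 does not show that the genotypes were alike.

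In hypothalamus 22 members could be tested and 0 were called, beside 0% of all 13504 genes, and DESeq2 called 0 members too. At an unadjusted p under 0.05 in edgeR there were 2 members, beside 1.56% of all genes, and 1.41% of all genes had groups that did not overlap. mt-Ti was at 11.6 to 16.9 CPM in the COX10 KO libraries and 21.7 to 36.3 CPM in the CTL libraries, with no overlap (log2 fold change -1.01 ± 0.22, edgeR unadjusted p = 0.000629, adjusted p = 1). mt-Tw (tryptophan) was at 3.04 to 3.72 CPM in COX10 KO and 4.14 to 6.61 CPM in CTL (-0.71 ± 0.27, edgeR unadjusted p = 0.0221, adjusted p = 1), also without overlap. Both were lower in COX10 KO in 4 of 4 same-numbered pairs.

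mt-Rnr2 was at 38869, 18845, 12638 and 12483 CPM in COX10 KO hypothalamus 1 to 4 and at 40873, 15993, 12703 and 15094 CPM in CTL hypothalamus 1 to 4. mt-Rnr1 was at 23696, 9338, 7369 and 6798 CPM in COX10 KO and at 21492, 8376, 6966 and 7756 CPM in CTL. In both genotypes the library numbered 1 was above the other 3, and the genotypes overlapped. The log2 fold changes were -0.03 ± 0.45 and 0.08 ± 0.46. Without both libraries numbered 1, mt-Rnr2 was at 0.01. The 7 measured mRNAs lay between -0.31 ± 0.25 for mt-Nd2 and 0.08 ± 0.28 for mt-Nd4, and the exact permutation p ran from 0.171 to 0.829 for them, where 4 against 4 allows no less than 0.0286. These tests and standard errors do not use the library numbers, and no label says that the numbers pair the hypothalamus libraries. mt-Nd2 was lower in COX10 KO in 4 of 4 same-numbered pairs, at 13861, 7725, 11001 and 9779 CPM in COX10 KO 1 to 4 and 15875, 11547, 11230 and 13803 CPM in CTL 1 to 4. With the number as a block it was at -0.34 ± 0.10 (edgeR unadjusted p = 0.0058, adjusted p = 0.441) and not called. Malat1 was at 4098, 1727, 977 and 1004 CPM in COX10 KO hypothalamus 1 to 4 and at 4410, 2019, 1163 and 1557 CPM in CTL 1 to 4. It was highest in the library numbered 1 of each genotype, as both rRNAs were, and its part in their levels was not tested. Choroid plexus markers, of a tissue next to the hypothalamus, summed to 3242 to 5344 CPM in COX10 KO and 1274 to 2873 CPM in CTL, with 0 of 7 called, and their part in the mtDNA values was not tested.

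Whether the response of muscle differed from that of the other tissues was tested directly. Between muscle and liver, 2 of 13 members had a different COX10 KO effect, both lower in muscle, beside 2.01% of all 11661 genes (0.986% lower and 1.02% higher). mt-Rnr2 differed by -3.05 ± 0.70 on the log2 scale (edgeR adjusted p = 0.021) and mt-Tp by -3.40 ± 0.85 (edgeR adjusted p = 0.0335). mt-Rnr1 at -2.02 ± 0.64 (0.0998), mt-Nd2 at -1.69 ± 0.59 (0.134) and mt-Co1 at 0.37 ± 0.39 (0.663) were not called. Between muscle and hypothalamus, 2 of 22 differed, beside 1.94% of all 14618 genes (0.725% lower and 1.21% higher). These were mt-Tt at -4.09 ± 0.86 and mt-Tp at -2.51 ± 0.53 (edgeR adjusted p = 0.0112 for each). As in muscle alone, the mt-Tt value depends on the prior count. mt-Rnr2 at -2.41 ± 0.68 (0.0673), mt-Nd2 at -1.35 ± 0.39 (0.0783) and mt-Rnr1 at -1.84 ± 0.64 (0.137) were not called. With the library number as a block within each tissue, a fit chosen after seeing the data, 5 of 22 differed, mt-Rnr2 (-2.34, edgeR adjusted p = 0.0157), mt-Rnr1 (-1.71, 0.0402) and mt-Nd2 (-1.25, 0.0449) besides mt-Tt and mt-Tp. By correlations in these same data, the numbers were taken to pair the hypothalamus libraries but not the muscle libraries. No label states a pairing. Both tests use the same muscle libraries. With library size alone, the genes called went to 251 higher and 74 lower between muscle and liver, against 119 and 115, and to 242 and 88 between muscle and hypothalamus, against 177 and 106.

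These differences rested on few libraries. Without muscle CTL 6 the mt-Rnr2 difference from liver was -2.62 (edgeR adjusted p = 0.0511). The mt-Tp difference from liver was lost without any of 12 libraries (muscle CTL 3 and 6, COX10 KO 1, 3, 4 and 5, liver CTL 1, 5 and 6 and COX10 KO 2, 3 and 5), with edgeR adjusted p of 0.0507 to 0.0921. Without muscle CTL 3, 5 and 6, 0 members differed in either test, and mt-Rnr2 against liver was at -2.03 (edgeR adjusted p = 0.298), mt-Tt against hypothalamus at -3.65 (0.0867) and mt-Tp against hypothalamus at -1.69 (0.083). mt-Rnr2 against hypothalamus came past the threshold when hypothalamus CTL 1 (-2.97, 0.0208), muscle CTL 4 (-2.56, 0.0298), muscle COX10 KO 1 (-2.67, 0.0423) or muscle CTL 2 (-2.45, 0.0497) was left out. Against hypothalamus, mt-Rnr1 came past it without hypothalamus CTL 1 (-2.40, 0.0417) and mt-Nd2 without muscle CTL 4 (-1.46, 0.0312). Against liver, mt-Rnr1 (-2.23, 0.0381) and mt-Nd2 (-1.91, 0.0405) came past it without liver COX10 KO 3.

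The levels in CTL mice give the ground on which the COX10 KO effects stand. In CTL hypothalamus, muscle and liver the mtDNA mRNAs held on average 11.5, 24.4 and 12.2% of gene counts and the rRNAs 3.18, 0.619 and 0.432%. mt-Nd4 was the most counted mRNA in all 3 tissues, with 51.6, 50.1 and 54.3% of the mtDNA mRNA counts, and mt-Cytb the second, with 18.7, 23.7 and 25.4%. These are shares of reads and do not rank the genes by level, since some 3′ ends have exact nuclear matches and others have none.

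CTL muscle against CTL liver gave 7 of 12 members higher and 0 lower, beside 27.2% of all genes higher and 30.8% lower, 58.0% in all. mt-Co1 was higher by 1.62 ± 0.30 on the log2 scale (edgeR adjusted p = 2.96e-04), mt-Nd5 by 1.63 ± 0.33 (6.43e-04), mt-Nd1 by 1.5 ± 0.41 (0.00555), mt-Nd2 by 1.24 ± 0.45 (0.0292) and mt-Nd6 by 1.37 ± 0.56 (0.0499). mt-Ti and mt-Tp were higher as well (1.59 and 2.51). mt-Nd4 at 0.91 ± 0.51 (0.142), mt-Cytb at 0.86 ± 0.50 (0.158), mt-Rnr2 at 0.73 ± 0.52 (0.247) and mt-Rnr1 at 0.55 ± 0.46 (0.335) were not called. The mt-Nd2 call was lost without liver CTL 4 or 5 or muscle CTL 6 (edgeR adjusted p up to 0.0847), and the mt-Nd6 call without any of 9 libraries (all but liver CTL 3 and muscle CTL 4 and 5). mt-Nd6 also fell short with library size alone (1.33, 0.0551). mt-Nd4 came past the threshold without muscle CTL 2 (1.05, 0.0214).

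Most measured mRNAs were lower in CTL hypothalamus than in CTL muscle. Of 22 members, 13 were higher and 7 lower in hypothalamus, beside 37.1% of all genes higher and 24.8% lower, 61.8% in all. The 6 lower mRNAs were mt-Cytb (-2.24 ± 0.44), mt-Nd4 (-2.14 ± 0.42), mt-Nd1 (-2.04 ± 0.38), mt-Nd2 (-1.99 ± 0.43), mt-Nd5 (-1.88 ± 0.35) and mt-Co1 (-1.73 ± 0.33), with edgeR adjusted p from 2.2e-04 to 7.89e-04. mt-Tt was the 1 tRNA lower (-1.59). mt-Nd6 was higher by 3.27 ± 0.52 (edgeR adjusted p = 4.49e-05), and averaged 103 ± 29.0 CPM in CTL hypothalamus (SD, n = 4), 7.55 ± 4.84 CPM in CTL muscle and 2.62 ± 1.70 CPM in CTL liver (n = 6 each), each scaled within its tissue. mt-Rnr1 was higher by 1.41 ± 0.56 (0.0381), a call lost without muscle CTL 4 or 5 or hypothalamus CTL 1 (edgeR adjusted p up to 0.162), and mt-Rnr2 at 1.1 ± 0.58 was not called (0.111). The other 11 higher members were tRNAs. Several of them passed the count filter only through hypothalamus, where they are high, so the number of tRNAs higher is no support for a difference of the class. In CTL muscle mt-Tc had 0 counts in all, mt-Tf 1, mt-Te 2, mt-Tl2 17 and mt-Ta 19. Among them mt-Tp was at 1.64, mt-Tm at 1.79, mt-Tv at 2.93, mt-Tl1 at 3.16 and mt-Tl2 at 3.37. mt-Tc had 0 counts in CTL muscle and was at least 103-fold higher over the group totals, with 3 counts as the floor. Of its 511 counts in CTL hypothalamus, 441 came from CTL 1, and the bound was 38.5-fold without that library and 60.2-fold without muscle CTL 4.

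Some of these tRNA calls rested on single libraries. mt-Tq was lost without muscle CTL 4 (1.31, edgeR adjusted p = 0.0995) or hypothalamus CTL 1 (1.05, 0.101), mt-Ta without muscle CTL 4 (2.29, 0.0599), mt-Tp without muscle CTL 4 (1.21, 0.0634) or 5 (1.41, 0.0599) and mt-Tt without muscle CTL 6 (-1.11, 0.133). mt-Ti was called lower without muscle CTL 5 (-0.96, 0.0284) and mt-Rnr2 higher without muscle CTL 6 (1.77, 0.0332).

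CTL hypothalamus against CTL liver gave 15 of 21 members higher and 1 lower, beside 37% of all genes higher and 28.6% lower, 65.6% in all. The rRNAs were higher by 2.63 ± 0.57 for mt-Rnr1 and 2.62 ± 0.58 for mt-Rnr2 (edgeR adjusted p = 0.00112 and 0.00141), and mt-Nd6 by 4.88 ± 0.59 (8.69e-06). All 12 tested tRNAs were higher, but several passed the count filter only through hypothalamus, so their number is no support for a difference of the class. In CTL liver mt-Tf and mt-Te had 0 counts, mt-Tc 1, mt-Tl2 2 and mt-Ta 7. Values were mt-Ti at 1.61, mt-Tm at 2.89 and mt-Tp at 4.53. The mt-Ti call was lost without liver CTL 5 (1.24, 0.0617). mt-Tf, mt-Te and mt-Ts2 had 0 counts in CTL liver and were at least 56.6-fold, 55.4-fold and 17.8-fold higher over the group totals by the same floor, mt-Ts2 without a test. Of the 197 counts of mt-Tf in CTL hypothalamus, 167 came from CTL 1, and without it the bound was 23.4-fold, while mt-Te (66.4-fold) and mt-Ts2 (13.3-fold) moved less. Without liver CTL 1, the deepest liver library, the bounds were 26.8-fold for mt-Tf, 26.2-fold for mt-Te and 8.42-fold for mt-Ts2. mt-Cytb was lower by -1.53 ± 0.53 (0.0222), a call lost without liver CTL 5 or 6 or hypothalamus CTL 1 or 2 (edgeR adjusted p from 0.0567 to 0.0885). mt-Nd1 (-0.46), mt-Nd2 (-0.37), mt-Nd5 (-0.32), mt-Co1 (0.09) and mt-Nd4 (-1.06, 0.0531) were not called. mt-Nd4 came past the threshold without liver CTL 1, 3 or 4 (-1.11 to -1.06, edgeR adjusted p from 0.0341 to 0.0481).

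Levels between tissues depend on the scaling. The median log2 fold change of all genes was 0.35 for CTL hypothalamus against CTL muscle and 0.25 against CTL liver, and with library size alone 1.3 and 1.14. With library size alone the 6 mRNAs called lower in hypothalamus than in muscle stayed lower, at -1.25 to -0.73, mt-Rnr2 was called higher (2.12) and mt-Tt was not called (-0.64, 0.279). Against liver, mt-Nd1, mt-Nd2 and mt-Nd5 changed from below 0 to above 0 without being called, mt-Cytb at -0.62 was no longer called, and mt-Co1 at 0.98 was called higher (edgeR adjusted p = 0.0174). The genes called went to 8164 higher and 1749 lower against muscle, in place of 5161 and 3449, and to 7686 and 2511 against liver, in place of 5297 and 4086. Hypothalamus came from males alone, so the sex term in these fits was set by the other tissue. In liver CTL 1 and 4 the labelled sex did not match sex-linked genes, and no fit between tissues left out both.

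**Figure D5:**
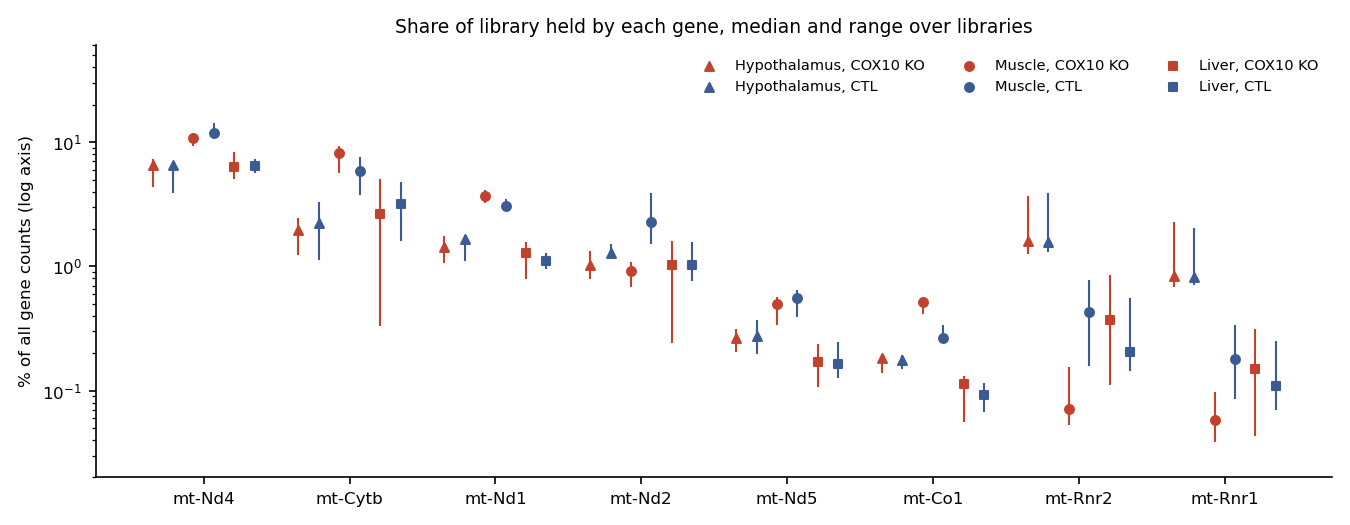
Share of all gene counts (y, %, log axis) of 8 mtDNA-encoded genes by tissue (triangles hypothalamus, circles muscle, squares liver) and genotype, median with range over libraries. The rRNAs are highest in hypothalamus and, in COX10 KO muscle, lowest of the 6 groups by median, while mt-Nd4 and mt-Cytb are highest in muscle.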

How the data were processed

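Per the labels and the study's methods, single-end QuantSeq FWD reads of 86 bases were trimmed by BBDuk. STAR 2.5.0a was the aligner, with GRCm38.p6 as genome, and HTSeq 0.6.1 the counter. The authors deposited 1 table of raw read counts for each library, with no normalization. Settings for strand and multi-mapped reads are not given in the sources used here. Counts for 55401 Ensembl IDs were joined over 32 libraries, and 55141 IDs had a symbol in GENCODE (GRCm38). No libraries were identical. Each tissue was fitted in edgeR 4.0.16 (R 4.3.3) with TMM, filterByExpr, a sex term in muscle and liver, the quasi-likelihood F test and Benjamini-Hochberg adjustment over all genes tested, with calls under 0.05. The effects were compared between tissues by a genotype-by-tissue term, and CTL tissues in pairs. The 9 measured mRNAs and rRNAs were also tested by exact two-sided permutation in scipy 1.17.1 (27 tests). DESeq2 1.42.0 was an alternative, with other scalings, filters, thinning, sexes apart and libraries left out. The edgeR procedure was also run on simulated data for the COX10 KO effect in each tissue, muscle minus liver and CTL muscle against CTL liver. Fits that set hypothalamus against another tissue were not simulated, and no rates from the simulation are given here. Copies in annotated nuclear genes were searched with BLAST+ 2.17.0, from 100 aligned bases at 95% identity.

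All 37 members are accounted for. Each mRNA and rRNA is named, tRNAs where tested or with at least 10 counts in a library, and up to 4 called genes with the smallest p per nuclear list. Exceptions named after their values were seen are Malat1 and copies with few counts. The members, the 10 lists of nuclear genes and the marker lists were chosen with earlier results of these data known. In hypothalamus, deviations of same-numbered libraries correlated at 0.813, 0.211, 0.408 and 0.316 for numbers 1 to 4. The highest correlation with another number was -0.1725, 0.0546, 0.275 and 0.481. The numbers were taken as pairs on this ground, though number 4 was closer to another number and no label gives a pairing. Blocking by number called 2 genes and 0 members there. The fold bounds set with a floor of 3 counts cover counting error only, not the spread between libraries.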

Additional observations from a re-analysis of the deposited data

Results flagged for a closer look

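Of 66 sets of 4 to 6 libraries, each a gene or a share in 1 group, 10 held a library far from the others of its group (15.2%). The cut-off gives about 1 in 20 for independent sets. These sets reuse the same libraries, so that rate does not apply to them. In muscle, mt-Nd2 was 51040 CPM in CTL 6, while the other 5 CTL libraries lay between 16342 and 25718. In liver, mt-Nd2 was 2657 CPM in COX10 KO 3 (others 10581 to 14688), mt-Co1 599.6 CPM in COX10 KO 4 (others 1098 to 1349) and mt-Nd6 17.2 CPM in COX10 KO 5 (others up to 5.11). In hypothalamus, mt-Rnr1 was 23696 CPM in COX10 KO 1 (others 6798 to 9338). CTL hypothalamus 1 stood apart in 5 measures. It had mt-Rnr1 at 21492 CPM (others 6966 to 8376), mt-Rnr2 at 40873 CPM (others 12703 to 15993) and an rRNA share of 5.94% (others 2.00 to 2.48%). It had the lowest mt-Nd4 at 40852 CPM (others 63212 to 66328) and the lowest mt-Nd6 at 59.4 CPM (others 113 to 121).

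The effect of COX10 KO differed between tissues, by the interaction term in edgeR, for mt-Rnr2 between muscle and liver (-3.05), mt-Tp between muscle and liver (-3.40), mt-Tt between muscle and hypothalamus (-4.09) and mt-Tp between muscle and hypothalamus (-2.51). These values are log2 differences with the muscle effect first. mt-Tt had 15 counts in COX10 KO muscle and 66 in CTL muscle, so its value depends on the prior count. Without the muscle CTL libraries of highest Malat1, 0 members differed in either test.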

How the results depend on the processing

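In muscle, 9 members were called with all libraries. The number was 4 with at least 10 counts in every library, 3 in females alone, 2 in males alone and 5 without the 3 CTL libraries of highest Malat1 (chosen after seeing the data), and 8 to 9 with 1 library left out. mt-Rnr2 was called in each of its 25 alternatives in muscle, at -2.89 to -1.44. mt-Nd2 was lost in males alone (-1.85, edgeR adjusted p = 0.0647), and mt-Rnr1 in females (-1.35, 0.0616) and males alone (-2.19, 0.0607). In liver and hypothalamus the number stayed at 0 in all alternatives. Between muscle and liver, 2 members became 4 with no filter, 5 by DESeq2, 0 without the 3 muscle CTL libraries of highest Malat1 and 0 to 3 with 1 library left out. Between muscle and hypothalamus, 2 became 4 with no filter, 5 by DESeq2, 5 with the replicate block within each tissue (chosen after seeing the data), 0 without those 3 libraries and 2 to 4 with 1 left out. CTL muscle against CTL liver had 7, and 12 by DESeq2. CTL hypothalamus had 20 against CTL muscle and 16 against CTL liver, and 8 and 4 with at least 10 counts in every library. The cause of these changes was not tested, beyond fewer members passing the stricter filter and fewer libraries in the sexes apart. As a percentage of nuclear counts, mtDNA counts were 31.7 in COX10 KO and 33.4 in CTL muscle, 14.4 in CTL liver, and 16.6 in COX10 KO and 17.3 in CTL hypothalamus. All genes called numbered 281 to 2220 over the alternatives in muscle, beside 1668, 0 to 175 in liver, beside 9, 0 to 2 in hypothalamus, beside 0, 32 to 714 between muscle and liver, beside 234, 150 to 747 between muscle and hypothalamus, beside 283, 2286 to 8099 between CTL muscle and CTL liver, beside 6279, 2743 to 9913 between CTL hypothalamus and CTL muscle, beside 8610, and 4043 to 10474 between CTL hypothalamus and CTL liver, beside 9383. Of 2954 values of single members under alternatives, 2738 kept direction and call, 77 lost the call, 37 gained it, 102 uncalled values moved or changed sign and 0 called values changed sign.

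Within muscle and within liver, numbers did not pair COX10 KO with CTL libraries (same-number correlations -0.176 to 0.238 and -0.523 to 0.490). With the replicate block, 8 members were called in muscle, mt-Co1 (0.71, edgeR adjusted p = 0.0639) no longer among them, and 0 in liver. Across tissues the block joined muscle and liver libraries of the same genotype and number, as if from the same animal. No label states that pairing, and it was not checked. With it, 0 members were called between muscle and liver and 6 between CTL muscle and CTL liver. With numbers blocked within each tissue, 5 members differed between muscle and hypothalamus, mt-Rnr1, mt-Rnr2 and mt-Nd2 joining mt-Tt and mt-Tp. For CTL hypothalamus against CTL muscle or CTL liver, no paired analysis was made. Numbers 1 to 3 are labelled male in hypothalamus and female in muscle and liver, and only number 4 is labelled male in each tissue.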
